A study of Homo sapiens with 346 samples.

Results

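The estrogen receptor ESR1 and 9 genes that are known markers or regulators of the luminal cells of the breast (GATA3, XBP1, FOXA1, SPDEF, GREB1, PGR, TFF1, TFF3 and AGR2) were followed in single cells of 2 human lines. The 10 genes were taken by name from the deposited gene tables, and they were chosen from their measured levels in these same cells, so the levels and co-variation below are given as a description, without a test. All 10 are among the 29551 genes listed for the cells labelled HepG2, and 7 are among the 28806 genes listed for HCT-116, where SPDEF, TFF1 and TFF3 have no row. Cells of each line were sequenced singly by Smart-seq2, which copies polyadenylated RNA along its full length, either live or after fixation in 80% methanol and storage for 1 week at -80 °C. HCT-116 was derived from a human colorectal carcinoma, and the name HepG2 belongs to a line from a liver tumour. Both were grown in serum and trypsinised before the suspension was divided between the treatments. The tables hold 91 live and 92 fixed HCT-116 cells, and 68 live and 83 fixed cells labelled HepG2. The latter came from 2 experiments that the labels do not separate, and the HCT-116 cells came from 1. Per the methods of the study, live cells went into processing for their library at once, and were stained with propidium iodide for sorting. Fixed cells were sorted and made into libraries only after the 1 week of storage. Treatment therefore went together with the time of sorting and library making, so that storage, any batch and the fixation itself cannot be told apart. A line under 1 treatment thus counted as 1 sample, its cells did not serve as replicates, and no test was run.

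ESR1 is a nuclear receptor that binds estrogen and then acts as a transcription factor on genes such as GREB1, PGR and TFF1. FOXA1 and GATA3 are transcription factors that open and hold the chromatin it binds, and with SPDEF and XBP1 they mark the luminal, secretory state of the breast epithelium. TFF1 and TFF3 are small secreted trefoil peptides, and AGR2 is a protein disulfide isomerase of the endoplasmic reticulum that helps to fold secreted proteins. FOXA1 is also a factor of the liver, known there as a hepatocyte nuclear factor.

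The label HepG2 went against its markers. Of 17 hepatocyte genes, 9 were listed for these cells and 0 exceeded 1 TPM (a level scaled to the depth of the cell and corrected for transcript length) in at least 50% of the live or of the fixed cells. Their summed level had a median of 0.121 TPM in live cells (range 0 to 35.9) and of 0 TPM in fixed cells (0 to 89.7), and ALB and AFP had no row. Of 23 luminal breast genes, a second list, 17 exceeded 1 TPM in at least 50% of the live cells and 18 did so in the fixed cells, with summed medians of 20632 and 12709 TPM. In HCT-116 13 genes of that list passed the same level in either treatment, with summed medians of 4510 and 3494 TPM, so much of the count was shared by both lines. KRT8, the keratin of simple epithelia, stood at 11421 TPM ± 5485 (SD over cells) in live and 5801 ± 2696 in fixed cells. Basal breast genes passed that level for 2 of 15 and intestinal genes for 0 of 15 in either treatment. In HCT-116, the colorectal line, these counts were 4 of 15 and 1 of 15, so the intestinal count hardly separates the lines. These cells are therefore called by their label only, as HepG2-labelled.

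Total reads per cell had medians of 2.5 M (mega) in live HCT-116, 1.8 M in fixed HCT-116, 2.4 M in live and 2 M in fixed HepG2-labelled cells, with a range of 0.2 to 5.3 M over all cells. The median number of genes detected per cell was 13887 in live and 12293 in fixed HepG2-labelled cells. For all genes, 1 column of live and 1 of fixed HepG2-labelled cells held equal values, and 6 fixed columns correlated with each other above 0.95. They were kept, and the values without them are given where they change a result.

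XBP1 is shown first by sequence, because its messenger exists in an unspliced and a spliced form and the deposited transcripts separate them. Under stress of the endoplasmic reticulum the enzyme IRE1 is known to cut 26 bases out of the unspliced messenger, and only the spliced form encodes the active factor. The stretch lies in exon 4 of XBP1-201, on the minus strand at chr22:28796124-28796149 (GRCh38, GENCODE), within coding sequence. The run below was read from that transcript with 20 bases on either side, and the capitals mark the 26 bases that transcript XBP1-202 lacks.
XBP1 regulated stretch: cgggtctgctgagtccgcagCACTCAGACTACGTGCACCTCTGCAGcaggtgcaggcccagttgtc
The bases at its ends repeat, so that the same transcript pair allows 7 placements of the gap, and the one shown is the known cut.

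RefSeq promoter windows, running from 250 bases before to 50 bases after a start site (GRCh38.p14), were at hand for 7 of the 10 genes and 20 start sites. None was used for GREB1, TFF1 and TFF3. Of the 20 windows, 0 held the full estrogen response element, GGTCA and its reverse complement with 3 bases of any kind between them, which 0.057% of all 35116 windows hold. The single arm of that element, GGTCA, read on both strands, was in 8 windows (40%) belonging to 4 genes, ESR1, GATA3, XBP1 and PGR, beside 37.4% of all windows. The 2 PGR windows among them overlap and hold the same site, which is counted in both. The forkhead motif TGTTTAC was in 0 of them (3.42% of all windows), and its second form TATTTAC was in that of SPDEF alone (2.67% of all). The motif of GATA factors searched for, AGATAA, was in that of AGR2 alone (10.3%). XBP1 and SPDEF are printed because, of all pairs, their levels had the highest lower coefficient of live and fixed HepG2-labelled cells. For XBP1, 1 of its 2 windows is printed, chr22:28800520-28800819 on the minus strand. The capitals mark the single arm there, found as its reverse complement TGACC from base 70 of the window. The other XBP1 window held TGACC from bases 201 and 277. For SPDEF the window is chr6:34556280-34556579 on the minus strand. The capitals mark the second forkhead form, found as its reverse complement GTAAATA from base 202 of the window.
XBP1 promoter: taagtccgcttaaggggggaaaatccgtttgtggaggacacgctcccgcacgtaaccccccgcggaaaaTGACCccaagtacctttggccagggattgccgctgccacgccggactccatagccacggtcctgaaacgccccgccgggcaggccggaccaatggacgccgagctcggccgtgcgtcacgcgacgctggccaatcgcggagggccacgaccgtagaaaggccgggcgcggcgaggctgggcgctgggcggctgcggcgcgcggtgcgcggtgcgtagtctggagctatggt
SPDEF promoter: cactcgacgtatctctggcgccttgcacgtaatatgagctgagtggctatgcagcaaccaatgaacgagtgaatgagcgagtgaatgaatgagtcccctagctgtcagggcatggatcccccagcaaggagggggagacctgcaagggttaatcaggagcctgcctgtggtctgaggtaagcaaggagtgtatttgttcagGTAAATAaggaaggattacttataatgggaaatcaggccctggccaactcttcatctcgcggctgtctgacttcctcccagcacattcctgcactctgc
A match is a description of the letters in these windows and was not tested as a binding site.

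ESR1, the receptor itself, was above 0 in all 68 live and all 83 fixed HepG2-labelled cells (100%, exact 95% Clopper-Pearson intervals 94.7 to 100 and 95.7 to 100). Its level per live cell ran from 4.5 TPM through a median of 45.9 to 94.3, with a mean of 47.7 ± 22.6 (SD over cells). Fixed cells ran from 3.55 through 24.7 to 96.4 TPM, with a mean of 27.1 ± 16.2. The ranges overlapped almost fully, while the centre of the fixed cells lay lower. In HCT-116 the mean was 0.925 TPM ± 0.606 in live and 0.741 ± 0.698 in fixed cells, the highest cell had 3.32 TPM, and no HCT-116 cell reached the lowest HepG2-labelled cell. ESR1 was nonetheless above 0 in 84 of 91 live (92.3%) and 76 of 92 fixed HCT-116 cells (82.6%). These shares were 57.8% and 50.1% after thinning to 500000 reads per cell, and 43.96% and 29.3% above 1 TPM.

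The transcripts behind these HCT-116 values set them apart from those of the HepG2-labelled cells. Transcript values were deposited as CPM, reads scaled to the depth of the cell but not divided by length. In HCT-116 none of the curated ESR1 transcripts had a row, and the predicted transcript XM_011535547.2 held 99.4% of the ESR1 CPM in live and 100% in fixed cells, with medians of 4 and 2.3 estimated reads per cell. In the HepG2-labelled cells 6 curated transcripts were listed, and together they held 142.4 CPM ± 87.5 in live and 100.997 ± 82.3 in fixed cells, led by NM_000125.3 with 115.8 and 77.7 CPM. The predicted transcript was above 0 in all of these cells too, at 35.2 CPM ± 21.8 in live and 8.59 ± 7.75 in fixed cells. It made up 18.5% of the ESR1 CPM in live and 7.59% in fixed cells. Its estimated reads were a whole number in 0% of these cells (tolerance 0.001), so they were always shared out between transcripts. In HCT-116 they were whole in 34.5% of live and 52.6% of fixed cells with that transcript, and in the rest shared out too. The only other ESR1 transcript listed there was above 0 in 1 live and 0 fixed cells. In nearly all of the rest the reads were thus shared with transcripts not matched to ESR1, which were not examined. Detection of ESR1 in HCT-116 therefore rests on that predicted transcript, in part through reads shared in this way. The curated forms were seen in the HepG2-labelled cells only.

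**Figure D1:**
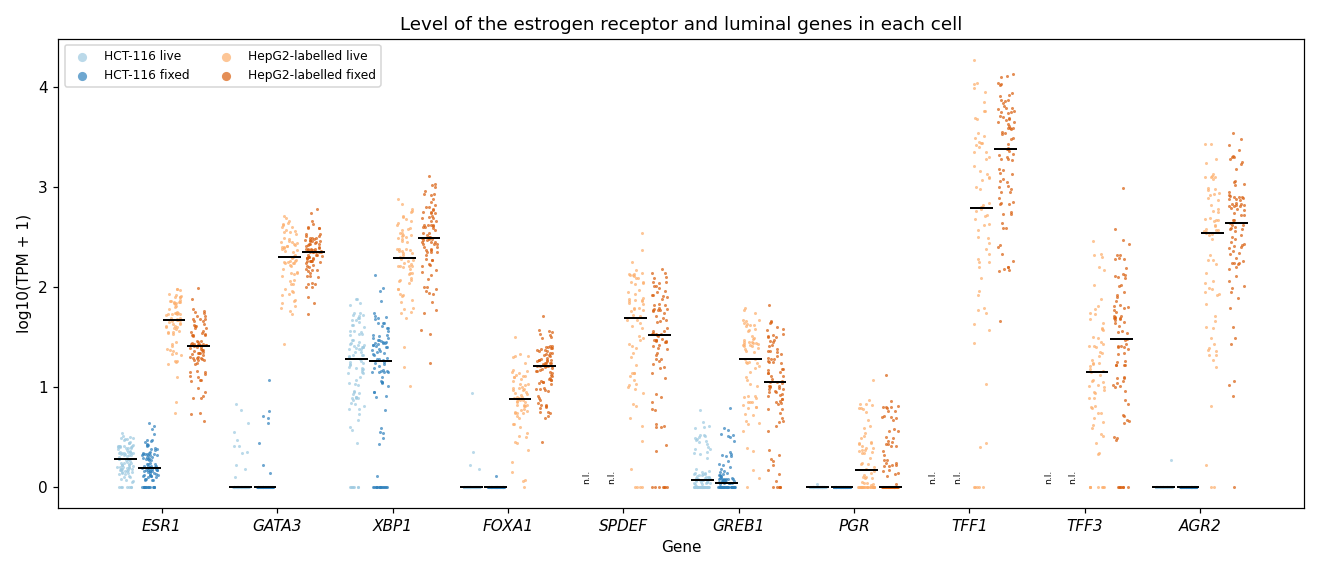
Level of each gene in each cell as log10(TPM + 1) in the 4 groups, with 1 point per cell, the median as a black line and n.l. where the gene has no row. In live HepG2-labelled cells TFF1 spans the widest range. In both treatments of these cells ESR1, GATA3 and XBP1 are above 0 in every cell, while in HCT-116 XBP1 is the only gene with a median above 1 TPM.

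GATA3 and FOXA1, the factors that act with the receptor on chromatin, differed in how evenly they were present. GATA3 was above 0 in all HepG2-labelled cells, from 25.6 through 197 to 512 TPM in live and from 52.6 through 224 to 609 in fixed cells, and its means of 216 ± 118.9 and 234 ± 99.5 TPM were within the SD over cells. It had the narrowest spread of the 10 genes in fixed cells, with a coefficient of variation (SD over mean) of 0.426, and ESR1 had the narrowest in live cells, with 0.473. FOXA1 was low, from 0 through 6.63 to 30.7 TPM in live and from 1.77 through 15 to 49.7 in fixed cells, and was above 0 in 67 of 68 live and all 83 fixed cells. Its mean was 7.7 TPM ± 5.56 in live and 15.8 ± 8.79 in fixed cells, with strong overlap. In HCT-116, GATA3 was above 0 in 12 of 91 live and 8 of 92 fixed cells and FOXA1 in 4 and 1. The GATA3 reads of the HepG2-labelled cells were mostly on the curated NM_001002295.1 and NM_002051.2, at 168.2 and 117.8 CPM in live and 179.7 and 104.5 CPM in fixed cells.

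XBP1 and SPDEF, the factors of the secretory programme, were both present but unevenly. XBP1 ran from 9.26 through 194 to 763 TPM in live and from 16.2 through 309 to 1307 in fixed HepG2-labelled cells, with means of 240 ± 170 and 376 ± 268 TPM. It was the only one of the genes with a mean of at least 1 TPM in HCT-116, at 21.8 ± 18.1 in live and 21.1 ± 22.2 in fixed cells, and was above 0 there in 84 of 91 and 75 of 92 cells. SPDEF, an ETS factor of goblet and luminal cells, ran from 0 through 48.1 to 349 TPM in live and from 0 through 32.1 to 151.4 in fixed HepG2-labelled cells, with means of 61.3 ± 62.1 and 43.4 ± 38.4. It was at 0 in 4 of the 68 live and 7 of the 83 fixed cells.

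The 2 forms of XBP1 were present in different proportions in the 4 groups. The form without the 26 bases printed above (NM_001079539.1, known as spliced XBP1) took 8.38% of the summed XBP1 reads of the live HepG2-labelled cells and 0.171% of those of the fixed cells, with 4799 against 52491 reads for the unspliced form (NM_005080.3) in live and 142.4 against 83169 in fixed cells. At least 0.5 estimated spliced reads were assigned in 30 of 68 live cells (44.1%, exact interval 32.1 to 56.7) and in 10 of 83 fixed cells (12%, 5.93 to 21). The highest share in a cell was 76.9% in live and 2.67% in fixed cells. The median number of XBP1 reads per cell was 685 in live and 834 in fixed cells. Without the columns of equal values the shares of summed reads were 8.42% and 0.172%, and without the 6 similar fixed columns the latter was 0.169%.

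In HCT-116 the spliced form took 39.4% of the summed XBP1 reads in live cells and 30.9% in fixed ones. Spliced reads were assigned in 57 of 91 and 45 of 92 cells. Over all cells the median number of XBP1 reads was only 53 and 33.5, and many cells stood at a share near 0 or 100%. Among the HCT-116 cells with at least 100 XBP1 reads, the spliced form was assigned in 23 of 27 live and 11 of 16 fixed cells, with median shares of 41.8% and 24%. Only reads over the 26 bases or across the cut tell the forms apart, and the program divides the others by an estimate, so the share in a single cell is imprecise.

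The genes that XBP1 is known to switch on, and other folding genes of the endoplasmic reticulum, were listed for comparison. Of 20 such genes, 19 had a mean of at least 1 TPM in HepG2-labelled cells, and 0 were higher and 0 lower past 2-fold in fixed cells, beside 1.10% and 5.65% of all genes, with a median difference of -0.34 on the log2 scale beside 0.04 over all genes. HSPA5, the main chaperone of the endoplasmic reticulum, had 156.9 TPM in live and 104.1 in fixed cells, and SEC61B, a subunit of its protein channel, had 341 and 519. In live HepG2-labelled cells with spliced reads HSPA5 averaged 144.8 TPM ± 97.4 (30 cells), and in those without it averaged 166.6 ± 100.6 (38 cells). In live HCT-116 the values were 311 ± 372 in the 57 cells with spliced reads and 182.009 ± 69.2 in the others. These HSPA5 values overlapped widely. In fixed cells HSPA5 had, in the same order, 381 and 313 TPM in HCT-116 and 97 and 105.1 in HepG2-labelled cells. DNAJB9, also on the list but named outside the rule for list genes, averaged 19.3 TPM with and 10.4 without spliced reads in live HCT-116. In fixed HCT-116 it averaged 26 and 15.7 TPM. In HepG2-labelled cells it had 16.9 and 17.2 TPM in live, and 19.8 (10 cells) and 14.7 (73 cells) in fixed ones. Median reads in fixed HCT-116 were 1.5 M with and 2.4 M without spliced reads. With the folding genes as a list, the spliced form had r of 0.13 in live and 0.13 in fixed HCT-116. In HepG2-labelled cells this r was -0.09 in live and 0.01 in fixed ones. Whether HSPA5, DNAJB9 or the list follows the spliced form was not tested.

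**Figure D2:**
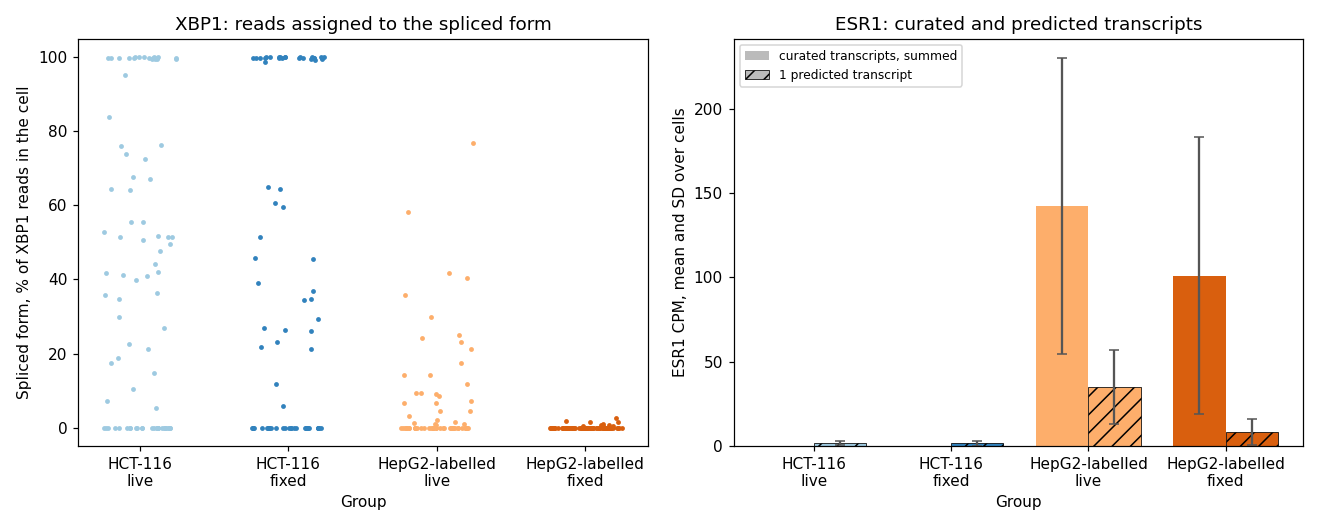
Left, percent of the XBP1 reads of a cell that were assigned to the spliced form, 1 point per cell with XBP1 reads, by group. Right, mean CPM of the curated ESR1 transcripts summed (plain bars) and of 1 predicted transcript (hatched bars) with the SD over cells. The spliced share is at most 2.67% in the fixed HepG2-labelled cells and reaches 76.9% in live ones, and HCT-116 has hatched bars only.

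GREB1 and PGR, classical targets of the receptor, were far apart in level. GREB1, a coregulator induced by estrogen, was above 0 in 67 of 68 live and 78 of 83 fixed HepG2-labelled cells, from 0 through 17.8 to 60.2 TPM in live and from 0 through 10.1 to 65.4 in fixed cells, with means of 20.5 ± 15.5 and 14.3 ± 13. The progesterone receptor PGR was the lowest of the 10, with means of 1.41 ± 2.09 and 1.28 ± 2.11 TPM and highest cells of 10.7 and 12.1. It was above 0 in 46 of 68 live cells (67.6%, interval 55.2 to 78.5) and in 41 of 83 fixed cells (49.4%, interval 38.2 to 60.6). Thinned to 500000 reads per cell, these shares were 56.9% and 47.3%, and above 1 TPM they were 41.2% and 32.5%, so that the gap between the treatments depended on the depth and cut used. In HCT-116, PGR was above 0 in 1 of 91 live and 0 of 92 fixed cells, a count of 0 that allows a share of up to 3.26% by 3 cells of the total and of up to 3.93% by the exact interval. GREB1 was above 0 in 58 and 50 HCT-116 cells, at means of 0.591 and 0.396 TPM, with medians of 1 read per cell. Most GREB1 reads of the HepG2-labelled cells lay on predicted transcripts, and the curated ones held 23.8% of its CPM in live and 18.9% in fixed cells.

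In live HepG2-labelled cells the trefoil genes were the most uneven of the 10, with coefficients of variation of 1.64 for TFF1 and 1.68 for TFF3. In fixed cells these were 0.945 and 1.82, beside 1.65 for PGR. TFF1 ran from 0 through 618 to 18731 TPM in live and from 44.6 through 2412 to 13709 in fixed HepG2-labelled cells, with means of 2046 ± 3352 and 3551 ± 3355. The 7 highest of the 68 live cells held 51.9% of all TFF1 of the live cells, and the 8 highest of the 83 fixed cells held 30.2%. TFF1 was at 0 in 5 live cells and in no fixed cell (92.6% detected, 83.7 to 97.6, against 100%, 95.7 to 100). These 5 cells had 12818 to 14637 genes detected, a range within that of the other live cells, with ESR1 at 36.9 to 79.1 TPM and AGR2 at 22.3 to 2718 TPM, while TFF3 was above 0 in 1 of them. TFF3 ran from 0 through 13.2 to 289 TPM in live and from 0 through 29.2 to 975 in fixed cells, with means of 34.5 ± 57.8 and 68.4 ± 124.7, and was above 0 in 61 and 76 cells. Both genes lie on chromosome 21, with 46872 bases between them (GRCh38.p14).

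AGR2 ran from 0 through 349 to 2718 TPM in live and from 0 through 433 to 3504 in fixed HepG2-labelled cells, with means of 506 ± 599 and 663 ± 709, and was above 0 in 66 of 68 and 82 of 83 cells. In HCT-116 it was above 0 in 1 live cell, at 0.846 TPM, and in 0 of 92 fixed cells. TPM being a level per length, the genes can be ranked by mean in live HepG2-labelled cells as TFF1, AGR2, XBP1, GATA3, SPDEF, ESR1, TFF3, GREB1, FOXA1 and PGR, and in fixed cells TFF3 moved ahead of SPDEF and ESR1 and FOXA1 ahead of GREB1. Neighbouring genes in this order overlapped within their SDs over cells. At least 8 of the 10 genes exceeded 1 TPM in 62 of 68 live cells (91.2%) and 78 of 83 fixed cells (94%), and no HepG2-labelled cell had fewer than 6. Together the 10 genes made up a median of 0.196% of the TPM of a live and 0.415% of that of a fixed cell.

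The difference between fixed and live cells was taken as the difference of the mean log2(TPM + 1) over cells, and a gene was called past 2-fold where it reached 1 in size and its mean was at least 1 TPM. All 10 genes passed that filter in the HepG2-labelled cells. In fixed cells 2 of them were higher past 2-fold, TFF1 by 2.29 (SD over cells 2.82) and FOXA1 by 1.06 (SD 0.91), beside 1.10% of all 12456 genes tested, and 0 were lower, beside 5.65%. TFF3 at 0.94 and AGR2 at 0.90 were just short of the limit, which TFF3 passed with 1.05 under a pseudocount of 0.1, XBP1 stood at 0.66 and GATA3 at 0.23. ESR1 stood at -0.83, GREB1 at -0.59, SPDEF at -0.39 and PGR at -0.11. The median over the 10 genes was 0.44 and that over all genes 0.04. Only for TFF1 and FOXA1 was the difference past 2-fold, and only for FOXA1 was it larger than the SD over cells. As a log2 ratio of mean TPM, TFF1 differed by 0.80 in place of 2.29. The 10% of live cells lowest in TFF1 lay at or under 7.27 TPM and the 10% of fixed cells lowest in it at or under 254 TPM, whereas the highest live cell exceeded the highest fixed one. With TPM rescaled by the median ratio, FOXA1 was at 0.90 and ESR1 at -1.004, past the limit, and with cells paired on total reads (38 pairs) they were at 0.88 and -1.03. That rescaling moved the median of all genes from 0.04 to -0.09.

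In HCT-116 XBP1 was the 1 gene of the 10 with a mean of at least 1 TPM. Its difference was -0.39 (SD over cells 1.80), within 2-fold, where 0.169% of 11812 genes were higher and 6.48% lower. The other 6 listed genes lay between -0.17 for ESR1 and 0.00 for PGR, at levels where the added 1 TPM hides any ratio.

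The fixed-minus-live differences of the 10 genes were set beside the length of their canonical transcript (GENCODE release 44). That length need not be the length of the RNA measured. PGR, for example, was led by NM_001202474.3 in live cells (25.2% of its CPM) and by NM_001271162.1 in fixed cells (57.7%). The shortest, TFF1 with 492 bases and TFF3 with 867 bases, had the largest and the third largest difference, and the 3 genes over 6000 bases, ESR1 with 6327, GREB1 with 8555 and PGR with 13037, were all below 0. Across the 10 genes Spearman's rho between length and difference was -0.70, and with GC content it was 0.19. Over the 10850 of 12456 tested genes with a length, these coefficients were -0.03 and -0.33, and the median difference was 0.08 for genes under 1000 bases and 0.10 for genes of 6000 bases and over. Genes are not independent replicates, and the order seen in these 10 genes was not that of all genes.

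**Figure D3:**
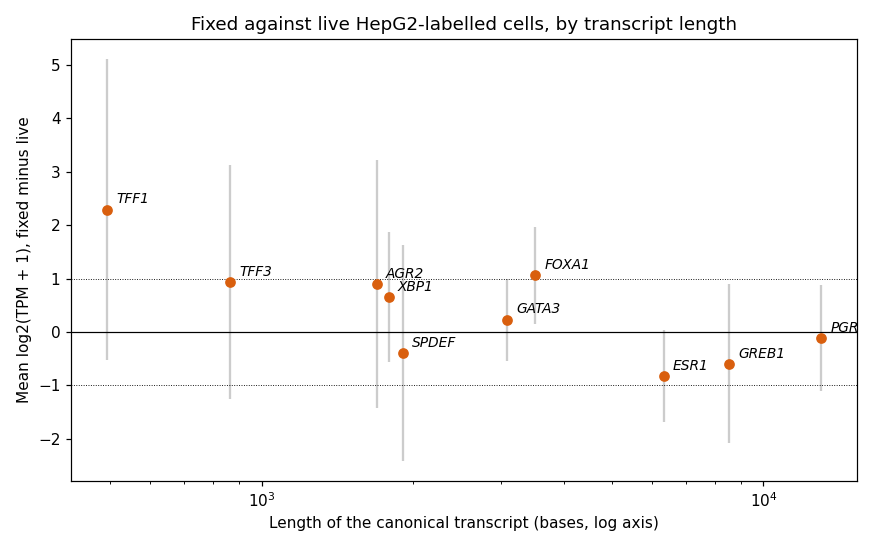
Fixed-minus-live difference of mean log2(TPM + 1) in HepG2-labelled cells (bars, SD over cells) against the length of the canonical transcript in bases on a log axis, with dotted lines at 2-fold. TFF1, the shortest at 492 bases, stands highest at 2.29, and ESR1, GREB1 and PGR, all over 6000 bases, lie below 0.

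Between the lines, 6 of the 7 genes listed in both tables had a mean of at least 1 TPM over the lines, and all 6 were higher past 2-fold in HepG2-labelled cells, beside 16.1% of 12481 genes in live and 18.2% of 12232 genes in fixed cells, and 0 were lower, beside 13.7% and 11.6%. The genes were chosen with this contrast known, so nothing is read from the count. AGR2 differed most, by 7.55 in live and 8.46 in fixed cells, followed by GATA3 with 7.32 and 7.58. ESR1 differed by 4.53 and 3.88, XBP1 by 3.58 and 4.63, GREB1 by 3.41 and 2.96, and FOXA1 by 2.75 and 3.87. As a log2 ratio of mean TPM in live cells, these genes differed by 5.69, 3.46, 5.12 and 6.12, in the same order. Their ranking thus depends on the added 1 TPM. PGR, under the filter, stood at 0.89 and 0.78. Of all genes past 2-fold between live cells of the lines 53.9% were higher in HepG2-labelled cells, and 39.7% were so with ribosomal RNA left out, while all 6 members kept their direction.

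Other estrogen receptor target genes, a list of 31, were measured beside the members. In the HepG2-labelled cells 29 had a mean of at least 1 TPM, and in fixed cells 0 were higher and 7 lower past 2-fold, beside 1.10% higher and 5.65% lower over all genes, with a median of -0.18 beside 0.04. In HCT-116, where the receptor had no curated transcript, 0 of 17 were higher and 4 lower, beside 0.169% and 6.48%. CTSD, a lysosomal protease, had 1256 TPM in live HepG2-labelled cells and 211 TPM in fixed ones (-2.69), and 68.7 and 27 TPM in HCT-116 (-1.57). FOS, an immediate early gene, had 531 and 19.7 TPM (-5.48), and 127.2 and 7.89 TPM in HCT-116 (-4.70). The secreted STC2 had 39.3 and 8.03 TPM (-2.01), and 15.1 and 5.03 TPM in HCT-116 (-1.13). The other 4 that were lower in HepG2-labelled cells, named after their values were seen, were CXCL12 (-1.62), CA12 (-1.29), WISP2 (-1.51) and RET (-1.69), and in HCT-116 they were within 2-fold, at means under 1 TPM. TPD52L1 and SLC39A6 differed by 0.29 and 0.35. Between the lines, 17 of 27 target genes were higher and 3 lower in live HepG2-labelled cells, beside 16.1% and 13.7% of all genes, with a median of 1.41 beside 0.09.

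Of 20 receptor cofactors, 19 passed the filter and 1 was higher past 2-fold in fixed HepG2-labelled cells, KDM1A (1.03, named after its value was seen), and 0 were lower. NCOA3, a p160 coactivator, had 111.7 TPM ± 56 in live and 137.98 ± 51.5 in fixed cells, against 4.61 and 5.56 TPM in HCT-116. Of the luminal list, 1 of 19 was higher and 2 lower in fixed HepG2-labelled cells, and 0 of 14 were higher and 3 lower in HCT-116. Over all genes 1.10% were higher and 5.65% lower in the former, and 0.169% and 6.48% in the latter, so that counts this small in the cofactor and luminal lists are not read as differing from all genes. CLDN4, a tight junction protein, was lower past 2-fold after fixation in each line, with 348 and 110 TPM in HepG2-labelled and 143.8 and 54.9 TPM in HCT-116 cells. The keratins KRT8, KRT18 and KRT19 differed by -0.92, -0.09 and -0.68.

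Co-variation was taken as Pearson's r of ln(TPM + 1) across cells, within the live and within the fixed HepG2-labelled cells. The cells of a group came from 2 experiments that could not be separated here, depth and the number of genes detected vary between them, and the part of either in these coefficients was not tested beyond the settings named. Over the 45 pairs of genes, the median r was 0.16 in either treatment, and 33 pairs in live and 38 in fixed cells were above 0. In 4 pairs r was over 0.3 in both treatments. The first was XBP1 and SPDEF, with 0.55 in live and 0.51 in fixed cells, and under the other settings tried it lay between 0.51 and 0.62 and between 0.47 and 0.51. The next were ESR1 and XBP1 (0.38 and 0.35), TFF1 and TFF3 (0.68 and 0.34) and PGR and AGR2 (0.31 and 0.30). Each of these 3 pairs dropped under 0.3 in some setting, to 0.27 for ESR1 and XBP1 in live, 0.26 for TFF1 and TFF3 in fixed and 0.28 for PGR and AGR2 in live cells. ESR1 and its target GREB1 had 0.42 and 0.30, and ESR1 and PGR had 0.37 and 0.25.

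Other pairs did not keep their value between the treatments. XBP1 and TFF1 had 0.21 in live and 0.60 in fixed cells, ESR1 and GATA3 had 0.46 and 0.06, and ESR1 and AGR2 had 0.47 and 0.16. ESR1 and its target TFF1 had -0.17 and 0.21, and TFF1 and AGR2, both secretory genes, had -0.26 and 0.02. The difference of these coefficients between the treatments was not tested. FOXA1 had low coefficients to the 9 other genes, between -0.23 and 0.16 in live and between -0.04 and 0.21 in fixed cells.

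**Figure D4:**
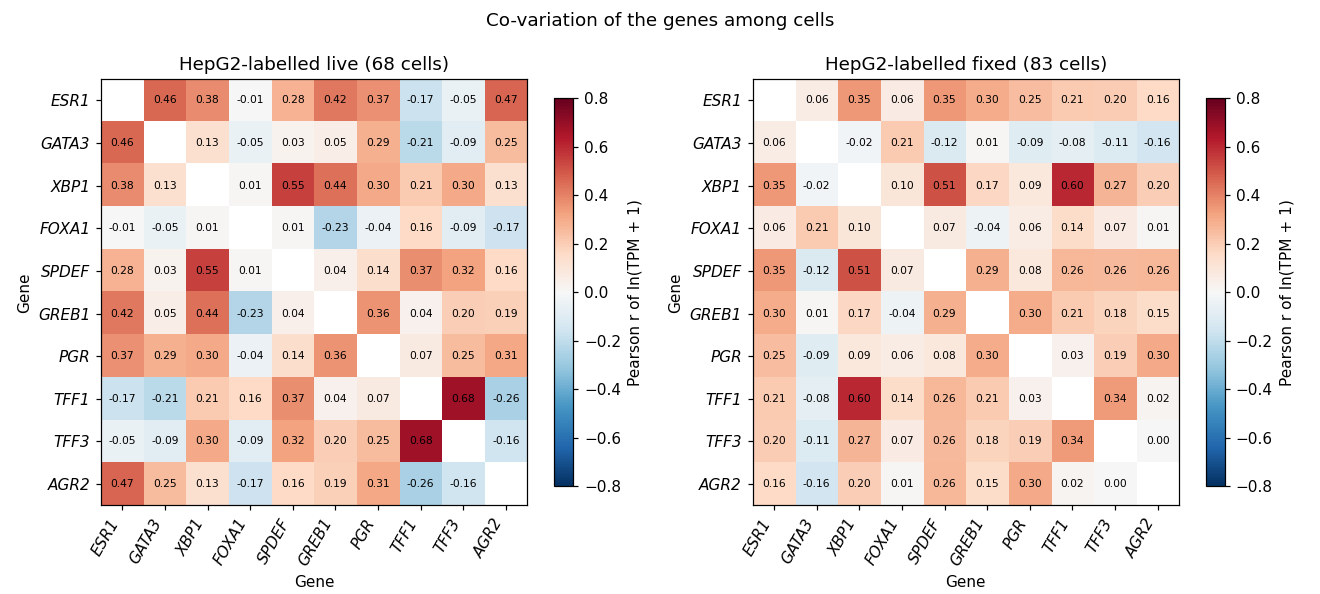
Pearson's r of ln(TPM + 1) for each pair of the 10 genes across 68 live (left) and 83 fixed (right) HepG2-labelled cells, on a colour scale from blue (negative) to red (positive). XBP1 and SPDEF stay near 0.5 in both panels, whereas ESR1 and GATA3 go from 0.46 to 0.06 and XBP1 and TFF1 from 0.21 to 0.60.

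The number of genes detected correlated with SPDEF in live cells (r 0.45) and with the other 9 genes between -0.04 and 0.22 there, and with all 10 between -0.14 and 0.19 in fixed cells. The TPM sum of the listed genes correlated with TFF1 and SPDEF in live cells (0.42 and 0.43). With this sum regressed out, an alternative added after seeing the data, and under the others tried, SPDEF and TFF1 lay between 0.23 and 0.38 in live cells. The mean score of 20 mitosis genes correlated with the members between -0.16 and 0.06 in live and between -0.23 and 0.15 in fixed cells, and that of 20 S phase genes between -0.23 and 0.17 and between -0.19 and 0.23.

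The receptor correlated with the scores of the target, cofactor and luminal lists, which share some genes. With the score of the endoplasmic reticulum folding genes ESR1 had 0.22 in live and 0.11 in fixed cells. ESR1 correlated with the mean of the 31 target genes at 0.60 in live and 0.32 in fixed cells, and GREB1 did so at 0.45 and 0.58 and PGR at 0.44 and 0.41. Other members did not follow that score alike, with FOXA1 at -0.33 and 0.00, TFF1 at -0.06 and 0.31 and GATA3 at 0.48 and 0.10. With the luminal mean ESR1 had 0.50 and 0.21. ESR1 correlated with the cofactor mean at 0.54 and 0.34. The mean of the 10 members correlated with the target genes at 0.55 and 0.56 and with the number of genes detected at 0.25 and 0.09.

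Over the 11232 other genes found in 50% or more of the cells under each treatment, the 8 most like ESR1, by the lower of the 2 coefficients, were NR2F2, TMEM64, TRIM74, FBP1, TLE3, HSD17B4, TPBG and B3GALNT1. NR2F2, an orphan nuclear receptor, had r of 0.37 in live and 0.39 in fixed cells at 49.2 and 62.4 TPM, and TPBG had 0.55 and 0.33. The 8 most like the mean of the members were TPBG, FAM102A, LOC105373957, STARD10, DEGS2, RET, IGFBP4 and MLPH, with lower coefficients between 0.40 and 0.46. RET, a receptor tyrosine kinase, and IGFBP4, a binding protein of insulin-like growth factors, are also on the list of target genes, and MLPH is on the luminal list. RET had 0.49 and 0.41 while its mean went from 16 TPM in live to 3.86 in fixed cells. These are the highest of many coefficients and are given as a description.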

How the data were processed

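Per the labels and the methods of the study, the authors quantified Smart-seq2 reads of single cells with kallisto 0.46.0 against GRCh38 and summed transcripts to genes with tximport, keeping cells with more than 4000 genes. The deposited gene tables hold TPM. The deposited transcript tables are named TPM, but the values the authors deposited are CPM, with no division by transcript length. Columns were mapped to a line and treatment by name. They carry no number that matches a single labelled cell, and 12 of the 346 labelled cells have no column. The 10 genes and all lists were chosen with earlier results of these data known.

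Transcripts were matched to genes through RefSeq accessions (GRCh38.p14). Total reads were read from the step of the CPM values to the nearest 0.1 M, and estimated reads are CPM times total reads in M. Differences are of the mean log2(TPM + 1), a scale that understates the change of low genes, called at a size of 1 for genes with a mean of at least 1 TPM. For the lines, only the 26894 genes listed in both tables were used. Shares of cells with a value above 0 have exact 95% Clopper-Pearson intervals, which cover counting error only. Genes named from the lists are, for each list, among the 5 with the highest mean in HepG2-labelled cells, those past 2-fold in both lines in the same direction, and others where said. The 8 genes most like ESR1 or the members' mean have the highest lower coefficient of live and fixed cells. List scores are means of scaled ln(TPM + 1), and correlations use ln(TPM + 1).

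Alternatives were a pseudocount of 0.1, the log2 ratio of mean TPM, no filter on low values, rescaling by a median ratio (taken on genes found in 90% of cells or more), ribosomal RNA left out, columns of equal or very similar values left out, cells paired on total reads, a TPM above 1, thinning to 500000 reads, Spearman's coefficient, the number of genes detected or the TPM sum regressed out, and curated transcripts only. Scripts ran under Python 3.11.15 with pandas 2.3.3, scipy 1.17.1, matplotlib 3.10.9 and numpy 2.4.6. The differences were tested on simulated data in which 200 genes were changed by a log2 ratio of 2, and the median found was 1.97 for HCT-116 (3515 genes) and 1.98 for HepG2 (3541 genes). Only well expressed genes without values of 0 were simulated, so this did not cover low genes such as PGR and FOXA1.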

Additional observations from a re-analysis of the deposited data

Results flagged for a closer look

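XBP1 stood higher in fixed than in live HepG2-labelled cells, by 0.66 on the log2(TPM + 1) scale, and lower in fixed than in live HCT-116 cells, with -0.39. It is singled out because the 2 lines go in opposite directions under the same contrast. As a log2 ratio of mean TPM the HCT-116 value was only -0.05, and that of the HepG2-labelled cells 0.65. The difference between the lines was not tested, and both values were smaller than the SD over cells, which was 1.22 in HepG2-labelled and 1.80 in HCT-116 cells.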

How the results depend on the processing

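No paired analysis was possible because live and fixed cells are different cells that no label ties together, and no test was run. The pairing on total reads named here only matches depth. In fixed against live HepG2-labelled cells, 2 of the 10 genes were higher past 2-fold and 0 lower. With a pseudocount of 0.1, 3 were higher, TFF3 passing the limit. With the log2 ratio of mean TPM 1 was higher, since TFF1 dropped under the limit, and with rescaling by the median ratio or with cells paired on total reads 1 was higher and 1 lower, FOXA1 dropping under the limit and ESR1 passing it. The median difference between the lines over the genes was 4.06 (live) and 4.25 (fixed), 5.66 and 6.19 with a pseudocount of 0.1, and 5.91 and 7.35 as log2 ratio of mean TPM. In live HCT-116 cells, the median share of cells with a member detected was 13.2%, and 3.66% after thinning to 500000 reads, and the median share of the leading transcript was 99.4%, and 76.1% over curated transcripts only. The other 93 summary values under alternatives moved by less than the SD over cells, genes or pairs, stayed within the interval of a share, or moved by at most 1.5 times for a count, and the cause of these moves was not tested. Over all genes, calls in fixed against live cells were 20 higher and 765 lower in HCT-116, but 354 and 1043 with the log2 ratio of mean TPM, 86 and 2176 with a pseudocount of 0.1 and 9 and 1302 without ribosomal RNA. In HepG2-labelled cells 16.3% of the calls were higher, but 35.1% with that ratio, 44.99% with pairing on total reads and 8.05% (81 higher, 925 lower) with rescaling. Without ribosomal RNA the median of all genes in HCT-116 went from -0.05 to -0.24. Of the values outside the summary ones, those of single genes among them, 47 moved under an alternative and 262 did not. Shares rest on 68 to 92 cells, and genes of a few reads per cell, such as PGR, are limited by depth.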
